A study of Mus musculus with 6 samples.

Results

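The genes described here are 6 chemokine genes of the mouse, the CC chemokines Ccl3, Ccl4, Ccl5, Ccl6 and Ccl9 and lymphotactin, Xcl1. Every probe set, the group of probes that an array uses to read a transcript, whose only gene symbol was one of these was taken, which gave 7 probe sets of 45141, or 6 genes of 17097 that a probe set names alone. Ccl9 had 2 probe sets and each of the others had 1. RNA was measured in T cells from the blood of 3 female C57BL/6 mice aged 6 to 8 weeks, labelled A, C and D. From each mouse, 300 CD3+ CD62L- CD44high cells that stained for CD11c and 300 that did not were sorted, so that there were 3 CD11c+ and 3 CD11c- samples, paired by mouse and each read on its own array after 24 cycles of amplification. According to the labels, 6 females had been given Depo-Provera, an injected progestin, at 3 mg and 5 days before they were killed, and the labels do not tell which of the arrayed mice were among them. The study's methods give a different number of days. Both fractions of a mouse share its age, sex, strain and any such treatment. The stain held antibodies to CD3, CD4, CD62L, CD44 and CD11c, and the sort used CD3, CD62L, CD44 and CD11c, not the absence of markers of other lineages.

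Chemokines are small secreted proteins that draw leukocytes along a gradient by binding receptors coupled to G proteins, and they are held near the cell that made them by glycosaminoglycans. Ccl3, Ccl4 and Ccl5 are products of activated T cells, NK cells and myeloid cells that bind differing combinations of receptors, whereas Ccl6 and Ccl9 are rodent chemokines best known from myeloid cells and bind Ccr1. Xcl1 is made by activated CD8 T cells and NK cells and attracts cross-presenting dendritic cells through Xcr1.

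The 6 genes fell into 3 patterns. Ccl3, Ccl4, Ccl6 and Ccl9 were high in all CD11c+ arrays and not above background in CD11c- means. Ccl5 was high in both fractions and somewhat higher in CD11c+ cells, a difference that did not pass the test, and Xcl1 was near background in both. The test was limma on log2 values from RMA, the authors' normalization, with the mouse as a block and p-values adjusted over all probe sets, at a threshold of 0.05. On this scale a step of 1 is a 2-fold difference. Under it, 5 of the 7 probe sets, of 4 of the 6 genes, were higher in CD11c+ cells and 0 were lower. Over all probe sets 432 were higher, 0.957%, and 76 were lower, 0.168%. The study printed Ccl3, Ccl4, Ccl6 and Ccl9 among its own examples chosen on these samples, so the count is not independent evidence of their direction. Values of the CD11c+ and CD11c- arrays did not overlap for 6 of the 7 probe sets, all higher in CD11c+ cells, against 6.4% of all probe sets. With 3 mice the smallest p of an exact two-sided paired permutation test is 0.25, so the adjusted values rest on the spread that limma shares across probe sets. In samples of sorted cells, fewer cells of a type and less RNA per cell cannot be told apart.

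**Figure D1:**
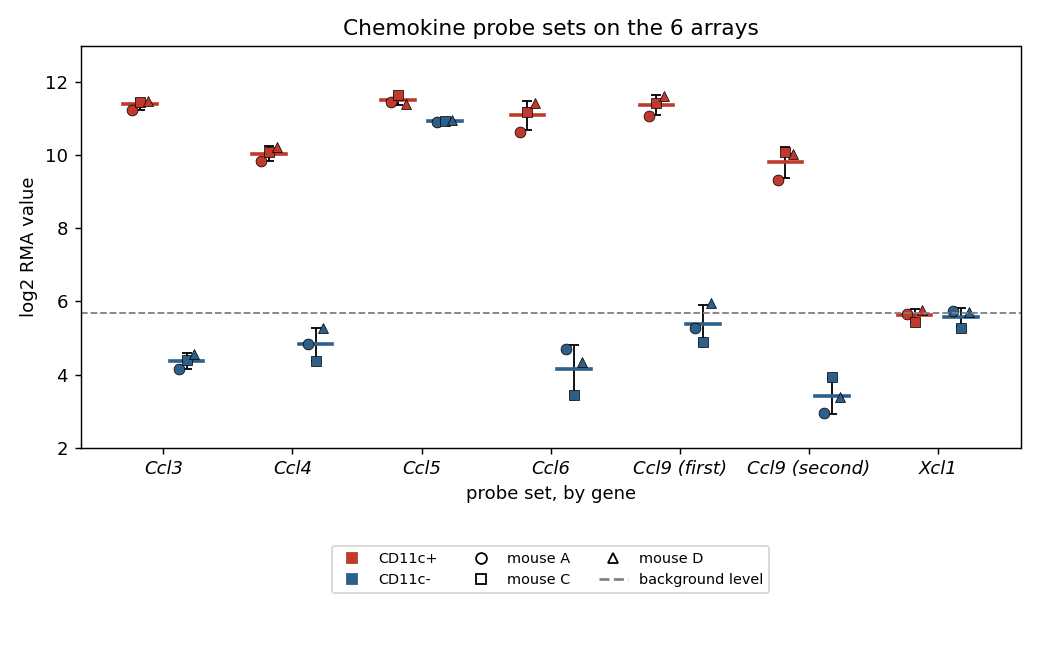
The log2 RMA value (vertical axis) of each chemokine probe set (horizontal axis) on the 6 arrays, CD11c+ in red and CD11c- in blue, with the symbol giving the mouse, the bar the mean and the whisker the SD (n = 3 mice). The dashed line is the background level of 5.70, and the CD11c+ points of Ccl3, Ccl4, Ccl6 and Ccl9 lie far above it while their CD11c- means lie below.

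Ccl3, Ccl4, Ccl5, Ccl6 and Ccl9 lie next to each other. In the RefSeq gene table their order on chromosome 11 is Ccl5, Ccl9, Ccl6, Ccl3, Ccl4, with no other protein-coding gene between them, while Xcl1 lies on chromosome 1. To show the control regions beside genes that moved together, the 250 bases before the transcription start are printed from the RefSeq promoter table (GRCm38.p6), for Ccl3 at chr11:83649379-83649628, Ccl6 at chr11:83593088-83593337, Ccl9 at chr11:83578637-83578886 and Xcl1 at chr1:164935523-164935772, each on the minus strand and written 5′ to 3′ along the gene. Ccl4 and Ccl5 have no entry there. Capitals mark matches to the motif letters given after the sequences.
Ccl3: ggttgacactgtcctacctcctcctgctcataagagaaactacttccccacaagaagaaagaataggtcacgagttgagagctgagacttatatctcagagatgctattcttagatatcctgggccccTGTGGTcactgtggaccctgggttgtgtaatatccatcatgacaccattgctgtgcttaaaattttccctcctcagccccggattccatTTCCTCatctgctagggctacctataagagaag
Ccl6: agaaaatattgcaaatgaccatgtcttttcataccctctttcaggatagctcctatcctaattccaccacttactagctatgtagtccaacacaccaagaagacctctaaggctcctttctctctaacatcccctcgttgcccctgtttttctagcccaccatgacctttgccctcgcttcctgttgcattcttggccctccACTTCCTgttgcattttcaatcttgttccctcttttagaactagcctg
Ccl9: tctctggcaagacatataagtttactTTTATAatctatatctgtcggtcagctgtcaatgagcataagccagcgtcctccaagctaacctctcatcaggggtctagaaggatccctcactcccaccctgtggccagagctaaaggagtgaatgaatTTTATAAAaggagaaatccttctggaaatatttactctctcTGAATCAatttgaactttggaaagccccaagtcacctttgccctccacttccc
Xcl1: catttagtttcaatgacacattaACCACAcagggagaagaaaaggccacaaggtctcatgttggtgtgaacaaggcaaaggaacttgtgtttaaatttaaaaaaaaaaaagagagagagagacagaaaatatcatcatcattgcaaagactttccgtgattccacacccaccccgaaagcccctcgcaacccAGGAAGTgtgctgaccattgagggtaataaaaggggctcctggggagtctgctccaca

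The letters were searched on both strands. Ccl3 held GAGGAA, read by PU.1 and other ETS factors, from 33 to 28 bases before the start on the opposite strand, and 23.3% of all 32851 RefSeq promoters of the same length hold it. Ccl3 also held the RUNX letters TGTGGT from 122 to 117 bases before the start, which 14% of promoters hold, and Xcl1 held them from 227 to 222 bases before on the opposite strand. The ETS letters AGGAAGT, which can overlap GAGGAA, were found in Ccl6 from 48 to 42 bases before the start on the opposite strand and in Xcl1 from 58 to 52 bases before, and in 7.69% of promoters. Ccl9 held the AP-1 letters TGANTCA from 53 to 47 bases before the start, which 6.75% of promoters hold, and TATAAA 3 times, of which 2 matches overlap on opposite strands, against 12.4% of promoters with at least 1 match. The letters TTGCNNAA for C/EBP (9.56% of promoters) and AGGTGT for T-box factors (11.8%) were not in these windows. No motif was found in all of Ccl3, Ccl6 and Ccl9, and a match is a run of letters, not a measured site.

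Ccl3 encodes a chemokine that recruits monocytes and T cells. Its log2 RMA value was 11.24, 11.46 and 11.50 in the CD11c+ samples of mice A, C and D and 4.14, 4.40 and 4.56 in the CD11c- samples. All CD11c+ values were above all CD11c- values, and the 3 within-mouse differences, 7.09, 7.07 and 6.94, were almost alike. The log2 fold change was 7.04 (SE 0.127, 95% interval 6.70 to 7.37, limma adjusted p = 0.00498). As no CD11c- array was above the background level, a log2 value of 5.70 set from genes of other tissues, Ccl3 was at least 52.2-fold higher in CD11c+ cells. Here and below such a bound sets the CD11c+ mean against the CD11c- arrays, each raised to the background level where it lay under it.

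Ccl4, an attractant of T cells and monocytes whose gene lies beside Ccl3, read 9.84, 10.09 and 10.23 in CD11c+ cells of mice A, C and D and 4.84, 4.37 and 5.27 in CD11c- cells. Again the groups were far apart, with no CD11c- array above background, and mouse C had the widest gap. The log2 fold change was 5.23 (SE 0.208, 95% interval 4.67 to 5.78, limma adjusted p = 0.00554), or at least 20.4-fold higher. The RefSeq spans of Ccl3 and Ccl4 overlap by 755 bases, and since the positions of the probes were not used here, reads of one transcript by the other's probes were not tested.

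Ccl6, a chemokine of macrophages and other myeloid cells, read 10.65, 11.20 and 11.44 in CD11c+ cells of mice A, C and D and 4.71, 3.44 and 4.33 in CD11c- cells. The CD11c+ values were all high, and the within-mouse differences of 5.95, 7.76 and 7.11 spread more widely than those of Ccl3, mouse A having the smallest. The log2 fold change was 6.94 (SE 0.376, 95% interval 5.93 to 7.94, limma adjusted p = 0.00911), and Ccl6 was at least 42.3-fold higher.

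Ccl9, which attracts myeloid and CD11b+ dendritic cells through Ccr1, was read by 2 probe sets. The first gave 11.08, 11.44 and 11.64 in CD11c+ cells of mice A, C and D and 5.27, 4.89 and 5.95 in CD11c- cells, the CD11c- array of mouse D being the only 1 of the 3 above background. The second gave 9.32, 10.09 and 10.03 in CD11c+ and 2.95, 3.92 and 3.38 in CD11c- cells, all of the latter under background. Both thus placed every CD11c+ array above every CD11c- array. Their log2 fold changes were 6.02 (SE 0.218, 95% interval 5.43 to 6.60, limma adjusted p = 0.00554) and 6.39 (SE 0.155, 95% interval 5.98 to 6.81, limma adjusted p = 0.00498), with bounds of at least 48.6-fold and at least 17.3-fold. The probe sets of Ccl9 did not disagree on direction or on passing the test.

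Ccl5, also called RANTES, is kept as a ready message in effector and memory T cells. It read 11.46, 11.66 and 11.41 in CD11c+ cells of mice A, C and D and 10.91, 10.95 and 10.97 in CD11c- cells. Both fractions were thus high, unlike those of its 4 neighbours, and the lowest CD11c+ value lay above the highest CD11c- value. The log2 fold change was 0.57 (SE 0.134, 95% interval 0.21 to 0.92), higher in 3 of 3 mice, with an unadjusted p of 0.0109 and an adjusted p of 0.184 in limma. It passed when limma let the variance follow the mean (adjusted p = 0.0183) and when the mean of the CD3 chains was set equal on all arrays, below called CD3 centring (1.31, adjusted p = 0.00228), and not under the other alternatives (adjusted p from 0.0701 to 0.551). CD3 centring called 22412 of all 45141 probe sets higher, against 432 in the main fit.

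Xcl1 read 5.65, 5.44 and 5.77 in CD11c+ cells of mice A, C and D and 5.73, 5.29 and 5.72 in CD11c- cells. All 6 values lay around the background level and the groups overlapped, with 1 CD11c+ and 2 CD11c- arrays just above it. The log2 fold change was 0.04 (SE 0.131, 95% interval -0.31 to 0.39, limma adjusted p = 0.92), and it was higher in 2 of 3 mice. Without mouse C it turned to -0.02. Under CD3 centring it passed at 0.78 (adjusted p = 0.0322), beside 22412 of all 45141 probe sets called higher. As neither group mean was above background, no fold is given.

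**Figure D2:**
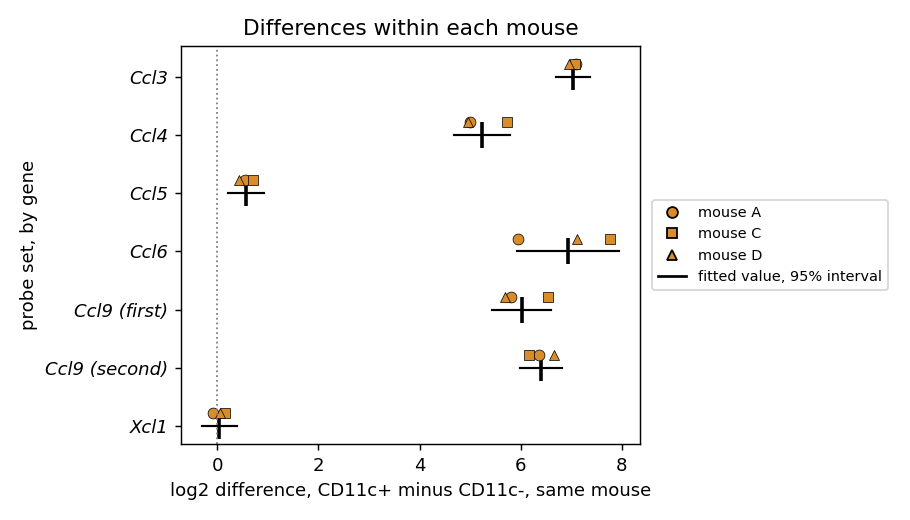
The log2 difference between the CD11c+ and CD11c- sample of the same mouse (horizontal axis) for each probe set (vertical axis), with 1 symbol per mouse and, in black, the limma value with its 95% interval. The 5 probe sets of Ccl3, Ccl4, Ccl6 and Ccl9 lie between 4.95 and 7.76 in every mouse, Ccl5 between 0.44 and 0.71, and Xcl1 on both sides of 0.

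Leaving out the arrays of mouse A ended all calls: 0 of the 7 member probe sets passed (6 at an unadjusted p under 0.05), and so did 0 of all probe sets in either direction (2796 higher and 2767 lower unadjusted). The log2 fold changes of the 5 called probe sets stayed between 5.34 and 7.43 there, with limma adjusted p from 0.0848 to 0.102. Without mouse C or D all 5 passed, while all probe sets gave 175 higher and 2 lower without mouse C, and 348 higher and 44 lower without mouse D.

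The measured neighbours of the chromosome 11 genes did not pass the test, and the nearest gene on each side, Heatr9 and Wfdc17, was not measured. Of the 3 protein-coding genes on either side, Mmp28, Heatr9 and Wfdc17 had no probe set of their own here. Taf15, which encodes an RNA-binding protein, lay at -0.51 on the log2 scale (limma adjusted p = 0.351), and Wfdc18 and Wfdc21, which encode secreted proteins with a whey acidic protein fold, had -0.09 and -0.26, neither above background. Past 25 other protein-coding genes lies a second run of 6 CC chemokine genes, Ccl2, Ccl7, Ccl11, Ccl12, Ccl8 and Ccl1, the monocyte and eosinophil attractants of the family. In limma 0 of these 6 passed, 0 passed at an unadjusted p under 0.05, none had a mean above background in either fraction, and their log2 fold changes ran from -0.28 for Ccl7 to 0.32 for Ccl2. Beside Xcl1 on chromosome 1, Atp1b1, a subunit of the sodium pump, was higher in CD11c+ cells at 9.19 against 6.13 (limma adjusted p = 0.0225), and the other 5 genes within 3 places, Nme7, Dpt, Tbx19, Sft2d2 and Tiprl, lay between -0.33 and 0.50 and did not pass.

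**Figure D3:**
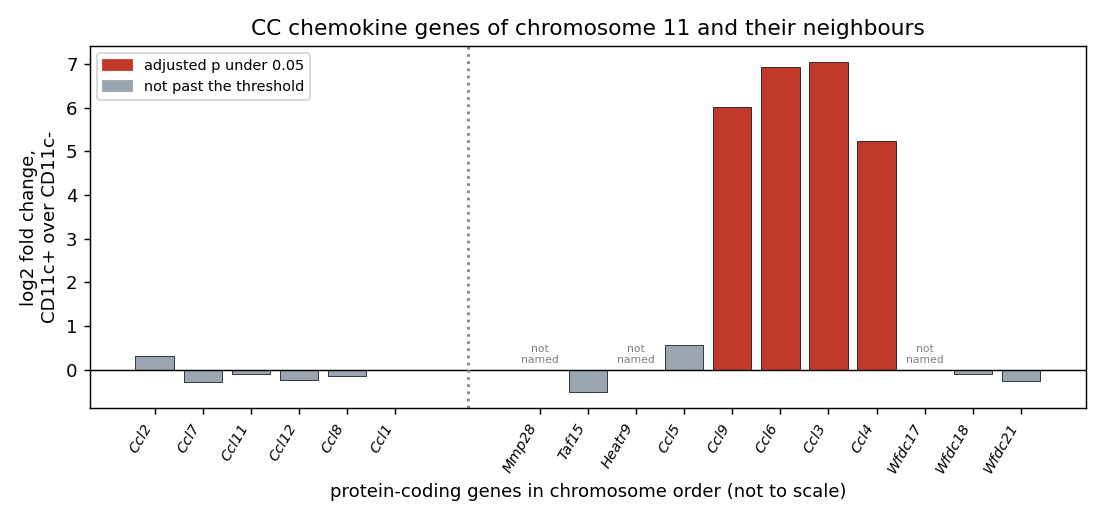
The limma log2 fold change, CD11c+ over CD11c- (vertical axis), of the protein-coding genes around the 5 CC chemokine genes of chromosome 11 (right of the dotted line) and of the second run of 6 CC chemokine genes (left), in chromosome order and not to scale. Red bars passed an adjusted p of 0.05, and these are Ccl9, Ccl6, Ccl3 and Ccl4 alone, with log2 fold changes from 5.23 to 7.04, which are not exact as the CD11c- means were not above background.

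Among the rest of the chemokine family, 29 of 32 listed ligand genes had a probe set, and in limma 0 were higher and 0 lower (1 higher and 0 lower at an unadjusted p under 0.05). Over all 45141 probe sets 2833 were higher and 3254 lower at that unadjusted level, which also stands beside the unadjusted counts below. Of the 29 ligand genes 24 had no mean above background in either fraction. Their median log2 fold change was -0.10, beside 5.62 for the 6 chemokine genes described above and -0.09 for all genes, and single values ran from -0.28 to 0.73. The gene at the upper end was Ccl25, a thymus and gut chemokine, at 0.73, or at least 1.37-fold higher as its CD11c- mean was not above background (limma adjusted p = 0.352). The other of the 2 Ccl25 probe sets lay at 0.0017, with neither mean above background. Under CD3 centring, which raised every log2 fold change by 0.739, the median of the 29 turned to 0.64. Then 14 passed as higher, beside 22412 of all 45141 probe sets.

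Among the receptors that bind these ligands, Ccr1, Ccr3 and Xcr1 were measured. Ccr1 read 3.65, 5.77 and 5.96 in CD11c+ cells of mice A, C and D and 2.80, 2.53 and 2.48 in CD11c- cells, so the groups did not overlap and mouse A had the smallest gap. Its log2 fold change was 2.52 (limma adjusted p = 0.174). Ccr3, the eosinophil and basophil receptor, had 0.59 (adjusted p = 0.417) and Xcr1 -0.26 (adjusted p = 0.553), and none of the 3 had a mean above background in either fraction. Under CD3 centring Ccr1 and Ccr3 passed, beside 22412 of all 45141 probe sets called higher, and Xcr1 turned to 0.48.

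Of 24 listed chemokine receptors 19 had a probe set, of which 0 were higher, 1 was lower and 18 did not pass in limma (7 higher and 4 lower at an unadjusted p under 0.05). Of all genes 1.4% were higher and 0.222% lower. Each receptor was read by its brightest probe set, and a dimmer one of Cx3cr1 passed as higher at 2.21 (limma adjusted p = 0.0403). The log2 fold changes of the 19 had a median of -0.15. The receptor that fell was Ccr6, which guides cells to Ccl20 in gut and skin. It read 7.52, 7.28 and 5.75 in CD11c+ cells of mice A, C and D and 9.76, 9.78 and 9.16 in CD11c- cells, lower in 3 of 3 mice with no overlap, and its log2 fold change was -2.72 (limma adjusted p = 0.0363). Ccr6 did not pass without the mouse block, after cyclic loess, with arrays centred on their median, or without mouse A or C (adjusted p from 0.0525 to 0.18). The receptors that missed the threshold by least were Ccr1l1 at 1.76 (adjusted p = 0.0572), with neither mean above background, Cxcr2, at least 3.37-fold higher with no CD11c- array above background (adjusted p = 0.0595), and Ccr4 at -2.98 (adjusted p = 0.074). The median turned to 0.59 under CD3 centring.

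**Figure D4:**
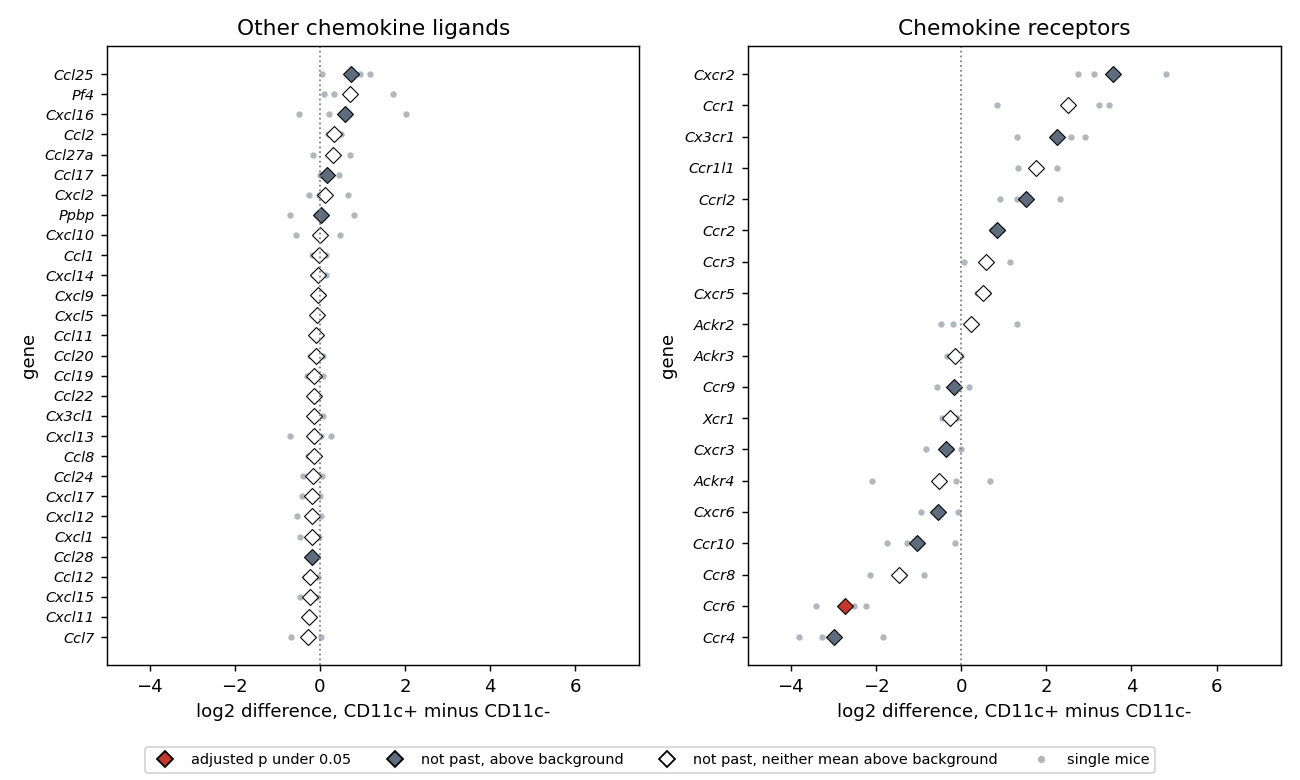
The log2 difference, CD11c+ minus CD11c- (horizontal axes), of the 29 other chemokine ligands (left) and the 19 chemokine receptors (right), 1 gene per row, with grey points for single mice and a diamond for the limma value. Open diamonds had neither mean above background, which holds for 24 ligands, and the only red diamond, a gene past the adjusted p of 0.05, is Ccr6 at -2.72.

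Downstream of the receptors, 21 of 23 listed signalling genes had a probe set and in limma 0 passed in either direction (7 higher and 2 lower at an unadjusted p under 0.05). Their log2 fold changes had a median of 0.02. Without the mouse block, with the mouse as a random block and with the variance trend 3 were higher. Over all 45141 probe sets 684, 812 and 684 were higher in these settings, against 432 in the main fit. With the trend 1 signalling gene was also lower, beside 207 of all probe sets. Under CD3 centring 15 were, beside 22412 of all 45141 probe sets. Those nearest the threshold were Rgs2 at 1.44 (limma adjusted p = 0.06) and Rgs1 at 1.75 (adjusted p = 0.0884), both brakes on G protein signalling, and Pik3cg at 1.30 (adjusted p = 0.0835), the lipid kinase that chemokine receptors activate. A second of the 3 probe sets of Rgs2, with a lower mean, passed at 2.27 (adjusted p = 0.024). Of 10 listed genes for the storage and processing of chemokines 9 had a probe set, and 0 passed in either direction (1 higher and 2 lower unadjusted), with a median of -0.05. Srgn, the granule proteoglycan serglycin that stores chemokines, was high in both fractions, at 11.40 in CD11c+ and 11.00 in CD11c- cells (adjusted p = 0.323). Sdc4 had -1.07 with neither mean above background, and Ext1, a heparan sulfate polymerase, had -0.63 (adjusted p = 0.346).

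Of 29 listed regulators of chemokine transcription and mRNA decay 27 had a probe set, of which 5 were higher, 0 lower and 22 did not pass in limma, against 1.4% of all genes higher and 0.222% lower. At an unadjusted p under 0.05, 11 were higher and 6 lower, and the median of the 27 was -0.002. Under CD3 centring 17 were higher, beside 22412 of all 45141 probe sets, and the median of the 27 was 0.74. Spi1, which encodes PU.1, a myeloid and B cell factor, read 8.21, 8.70 and 8.10 in CD11c+ cells of mice A, C and D and 4.46, 4.49 and 4.40 in CD11c- cells, at least 6.24-fold higher (limma adjusted p = 0.00626). Cebpa, a factor of myeloid progenitors, read 9.04, 9.88 and 9.97 against 5.52, 5.12 and 5.47, at least 15.3-fold higher (adjusted p = 0.0154). In both genes no value of one group reached the other.

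The other 3 regulators that rose were Eomes, a T-box factor of NK and memory CD8 T cells, at least 3.02-fold higher with 1 CD11c- array above background (limma adjusted p = 0.0225), Irf8, a factor of monocytes, dendritic cells and B cells, at 2.04 on the log2 scale (adjusted p = 0.0313), and Cebpb, induced in activated myeloid cells, at 1.80 (adjusted p = 0.0343). Only 1 of the 3 Cebpb probe sets passed, the others lying at 0.13. Only 1 of the 2 Eomes probe sets passed, the other lying at 2.11 (adjusted p = 0.0505). Nfkbiz did not pass by its brightest probe set, while a dimmer one passed as higher at 1.33 (limma adjusted p = 0.0498). Egr1, an immediate early factor, did not pass at 4.94 (adjusted p = 0.0534), its CD11c- values of 5.14, 7.67 and 5.79 being widely spread beside 11.32, 11.00 and 11.11 in CD11c+ cells. Without mouse A, C and D in turn 0, 3 and 3 regulators passed, and with arrays centred on their median 3 did.

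Among 20 listed cytokines of activated lymphocytes and basophils, 19 had a probe set, 2 were higher, 0 lower and 17 did not pass in limma. Of all genes 1.4% were higher and 0.222% lower. At an unadjusted p under 0.05, 6 of the 19 were higher and 6 lower. The median log2 fold change of the 19 was 0.02. Csf1, the growth factor of macrophages, read 10.22, 10.87 and 11.13 in CD11c+ cells of mice A, C and D and 6.79, 5.33 and 5.20 in CD11c- cells, which is 4.97 on the log2 scale (limma adjusted p = 0.0457). All 4 of its probe sets passed. Il1b, a cytokine of activated myeloid cells, was at least 2.84-fold higher (adjusted p = 0.0258). Of the T cell cytokines often made along with Ccl3, Ccl4 and Xcl1, Ifng lay at -0.07 (adjusted p = 0.963) and Il2 at -0.83 (adjusted p = 0.1). For Il2 this is at least 1.14-fold lower, as its CD11c+ mean was not above background and only 1 CD11c- array was. Tgfb1 came nearest to the threshold among those that did not pass, at 1.02 (adjusted p = 0.0669). Il4 came next, at 1.45 on the log2 scale (limma adjusted p = 0.0882). It was at least 1.27-fold higher, as its CD11c- mean was not above background. By its probe set of highest mean, Csf1 did not pass without any 1 of the 3 mice, after cyclic loess normalization or after median centring (adjusted p from 0.0606 to 0.124). The other Csf1 probe sets had adjusted p from 0.00681 to 0.0156 in the main limma fit, and their values under these alternatives are not given. Il1b did not pass without mouse A or C (adjusted p = 0.174 and 0.0979).

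The genes whose values over the 6 arrays, each centred on its own mean, lay nearest to those of the members were found among all 17097 genes by Euclidean distance, as a description of these arrays. For Ccl3 they were Alox5ap, the activating protein of leukotriene synthesis, at a distance of 0.503, Csf2rb2 at 0.9 and Ifitm1 at 0.905, all closer than the nearest member, Ccl6, at 1.14. For Ccl4 they were Csf2rb at 0.376, Lilrb4a at 0.6 and Tyrobp at 0.687. For Ccl6 they were Ms4a2, the beta chain of the IgE receptor, at 1.05, Alox5ap at 1.1 and Csf2rb2 at 1.19, and for Ccl9 they were Cyp11a1 at 0.697, Hgf at 0.763 and Ms4a2 at 0.809. Ms4a2 and Cyp11a1 both stand on the basophil and mast cell list described below. Ccl5, with a difference of under 1, had Midn at 0.143, Top3b at 0.158 and the cytotoxic cell protease gene Ctsw at 0.206, and Xcl1 had Fam135a at 0.128, Gm15471 at 0.153 and Vps72 at 0.159.

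Markers of other cell types were higher in the same CD11c+ arrays as Ccl3, Ccl4, Ccl6 and Ccl9. For the counts of these and the next lists, 1.4% of all genes were higher and 0.222% lower in limma. Of 11 listed basophil and mast cell genes 8 had a probe set and 8 were higher in limma, with a median log2 fold change of 5.02. Their summed linear signal was 3218, 4853 and 5392 in CD11c+ cells of mice A, C and D and between 122 and 132 in CD11c- cells, where none of the 8 was above background, and without mouse A, C and D in turn 0, 6 and 7 passed. Of 17 monocyte and macrophage genes measured of 21, 9 were higher and 0 lower with a median of 2.51, Lyz2 being at least 29-fold and Csf1r at least 5.43-fold higher, while Cd14 was above background in neither fraction. Their summed signal was 5918 to 7680 in CD11c+ and 1603 to 1823 in CD11c- cells, and 0, 7 and 10 of them passed without mouse A, C and D in turn. Of 7 dendritic cell genes measured of 9, 3 were higher (Cd209a, Clec10a and Tcf4) with a median of 1.35 and summed signals of 1136 to 2278 against 150 to 168, although Zbtb46 was above background in neither fraction, and 0, 1 and 3 passed without mouse A, C and D in turn. Mouse A had the lowest of the 3 CD11c+ values for all 5 called chemokine probe sets and the lowest summed signal of the basophil, monocyte and dendritic lists. Its CD11c+ sum was also lowest for the other ligands and the receptor, signalling, storage and cytokine lists. The same held for NK cell, eosinophil and platelet genes and for the genes of other tissues. It was highest for the T cell, B cell and regulator lists, and in between for neutrophil and red cell genes. By the study's methods the sort was nearly pure. The part of basophils, monocytes and dendritic cells in the chemokine values was not tested.

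T cell genes were measured in both fractions, with summed signals of 6400 to 8042 in CD11c+ and 12302 to 13106 in CD11c- cells. Of 12 measured of 15, 0 were higher, 2 lower (Cd5 and Cd6) and 10 did not pass in limma, with a median of -0.89. Leaving out any 1 of the 3 mice left 0 lower. The variance trend gave 7 lower, with 207 of all 45141 probe sets called lower there against 76 in the main fit. Cd3e, Cd3d and Cd3g were above background on all arrays. Cd4 had 7.80 in CD11c+ and 10.30 in CD11c- cells (limma adjusted p = 0.0973), the groups not overlapping. Cd8a, by its probe set of highest mean, had 10.49 and 8.95 (limma adjusted p = 0.151), again without overlap. The study's own limma list gave Cd8a as higher in CD11c+ cells with an adjusted p under 0.05, at a larger difference than this probe set. Of 8 NK cell genes measured of 10, 3 were higher (Cd244, Eomes and Klrd1) and 1 lower (Klrb1c), with a median of 1.16. Without mouse A, C and D in turn 0, 0 and 2 were higher and 0 lower, and Klrb1c did not pass after loess, median centring or with the variance trend. Ncr1, which encodes NKp46, was above background in neither fraction. Itgax, the gene of CD11c itself, was at 8.97 in CD11c+ and 4.60 in CD11c- cells (limma adjusted p = 0.0387), in the direction that the labels give.

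**Figure D5:**
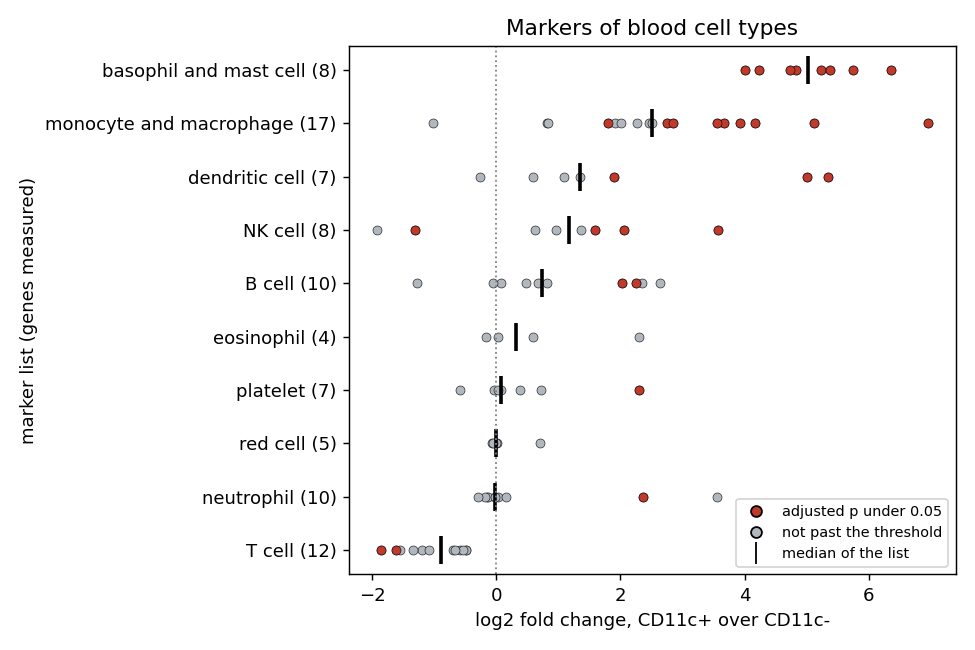
The limma log2 fold change, CD11c+ over CD11c- (horizontal axis), of every measured gene of 10 lists of blood cell markers (vertical axis, number of genes in brackets), in red where the adjusted p was under 0.05, with a bar at the median of the list. All 8 basophil and mast cell genes are red around a median of 5.02, while the T cell genes lie below 0 around -0.89.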

How the data were processed

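RNA of the 6 samples was amplified, labelled with biotin and hybridised to Affymetrix HT MG-430 PM arrays. The deposited value of every probe set is a log2 signal that the authors obtained by RMA from the scanned images. The submitters' processing notes name RMA and limma without a version. RMA makes array distributions alike, so total RNA per cell cannot be read from these values. Array medians ran from 4.40 to 4.54. Precision is limited by the number of arrays, which left each probe set 2 residual degrees of freedom.

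All 45141 probe sets, unfiltered, were fitted on their log2 values with limma 3.58.1 (R 4.3.3), with the mouse as a fixed block. Tests were two-sided, p-values were adjusted by Benjamini-Hochberg at a threshold of 0.05, and the code was tested on simulated data. The labels pair the samples by mouse. Deviations of same-mouse arrays from their group means correlated at 0.122 (A), 0.0758 (C) and 0.109 (D), and those of different mice between -0.086 and -0.0217. The platform annotation gave a single gene for 28898 probe sets, more than 1 for 551 and no gene for 15692. A gene other than the members was read from the probe set of highest mean. The background level was set at percentile 95 of the mean log2 values of 32 genes that mark other tissues. Marker sums are sums of unlogged values.

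The members and lists were chosen with earlier results of these data known. The rule named all members and their receptors, up to 5 genes at each end of a pathway list that passed and up to 3 that came nearest, leading markers, the 3 most alike genes of each member, and genes within 3 places on the chromosome, where only protein-coding genes were counted. That last limit, the motifs, and the naming of Ifng, Cd4, Cd8a and the less leading markers were chosen after values were seen. Of the genes the rule names, the text gives most. The alternatives were the block, the normalization, the variance model, a filter on dim probe sets, the averaging of probe sets within a gene and leaving out each mouse. Gene order and promoter sequences are from RefSeq. An item withheld from this text is not reported here.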

Additional observations from a re-analysis of the deposited data

How the results depend on the processing

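Without the replicate block, with the block as a random effect, after cyclic loess, with arrays centred on their median, and with dim probe sets left out, 5 member probe sets passed as higher, against 6 with a variance trend and 7 under CD3 centring. Leaving out mice in turn gave 0 to 5, the 0 being without mouse A. All probe sets higher, 432 in the report, numbered 684 without the replicate block, 812 with it random, 684 with the trend, 22412 with CD3 centring and 0 to 348 without a mouse. Those lower, 76 in the report, numbered 211, 316, 207 and 232 in the same order, 41 after loess, 140 with the filter and 0 to 44 without a mouse. CD3 centring, which raises every difference by 0.739 and also changes the spread, called 14 of the other ligands and 9 receptors as higher, against 0 and 0. Receptors higher were 2 without the block, 2 with it random, 3 with the trend, 2 with the filter, 4 with probe sets averaged per gene and 0 to 2 without a mouse. Xcl1 reversed to -0.0168 without mouse C, its values without a mouse running from -0.0168 to 0.0977. The causes were not tested. Leaving out a mouse leaves fewer degrees of freedom, and signals near background limit what can be said of Xcl1, the receptors and most other ligands.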

Other observations

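Further marker lists of blood cells gave these values in the same limma fit, in which 1.4% of all genes were higher and 0.222% lower. Of 10 B cell genes measured of 11, 2 were higher (Pax5 and Fcer2a) and 8 did not pass, with a median log2 fold change of 0.74, and 0 passed without any 1 of the 3 mice. Of 10 neutrophil genes measured of 12, Csf3r was higher, the median was -0.02, and S100a8 was above background in neither fraction. Of this list 0 passed after loess, after median centring, or without mouse A or C, and 2 passed without mouse D. Of 4 eosinophil genes measured of 6, 0 passed in either direction (1 higher and 0 lower at an unadjusted p under 0.05). Of 7 platelet genes measured of 9, Itga2b was higher, while 0 passed after loess, after median centring or without any 1 of the 3 mice, and of 5 red cell genes measured of 7, 0 passed (0 unadjusted). Cx3cr1, the fractalkine receptor, had a log2 fold change of 2.26 by its brighter probe set (adjusted p = 0.0884) and 2.21 by its other one (adjusted p = 0.0403). Pax5, Fcer2a, Csf3r and Itga2b were named after their values were seen.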
